A study of Mus musculus with 10 samples.

Results

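The HoxB cluster is a row of neighbouring Hox genes with 10 members: Hoxb1, Hoxb2, Hoxb3, Hoxb4, Hoxb5, Hoxb6, Hoxb7, Hoxb8, Hoxb9 and Hoxb13. It was described here as a fixed window of 190 kb on mouse chromosome 11, from 96045001 to 96235000 in the mm9 genome build, with Hoxb13 at the low end and Hoxb1 at the high end. The window was cut into 95 bins of 2 kb, out of 1236148 such bins on the autosomes. Bins are given in order from the Hoxb1 end, by their distance from it in kb. No mm9 gene annotation was used here, so the 10 genes are known by their order and are not assigned to single bins, and the identity of the cells could not be checked against marker genes.

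H3K4me3 and H3K27me3 were mapped by chromatin immunoprecipitation and sequencing (ChIP-seq) in 3 lines of mouse embryonic stem (ES) cells, with 10 libraries in all and 1 for each line, state and mark. XT67E1 (strain label C3H/Pgk*129) had both marks after a 4-day treatment with all-trans retinoic acid (atRA), as embryoid bodies (EBs) grown for 10 days without LIF, and undifferentiated. LF2 and E14 (both 129/Ola) had H3K27me3 as 10-day EBs and undifferentiated. Undifferentiated cells were kept on gelatin in medium with serum and LIF, and, as background, E14 is a male line and the other lines are female. EBs are mixed aggregates of many cell types, so more cells carrying a mark and more of the mark per cell cannot be told apart in these bulk libraries. Each H3K4me3 library held 2252395 reads, each XT67E1 H3K27me3 library 8380007, and each LF2 or E14 library 4531733. Levels are reads per 1000000 autosomal reads (RPM), and intervals are 95% intervals that cover counting error only.

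Hox genes encode homeodomain transcription factors that set position along the body axis. The genes are ordered along the chromosome as they are used along the axis: Hoxb1, Hoxb2, Hoxb3 and Hoxb4 act in the hindbrain and open first, Hoxb5 to Hoxb9 act further back, and Hoxb13 acts in the tail end of the embryo. Retinoic acid, which induces Hox genes from the Hoxb1 end onward, acts through receptors bound near these genes. In ES cells the clusters are covered by H3K27me3, the silencing mark placed by Polycomb repressive complex 2, and H3K4me3 marks promoters that are active or poised. In the RefSeq gene table (GRCm38.p6, used for names and order only), all 10 genes were found, with the microRNA genes Mir10a beside Hoxb4 and Mir196a-1 between Hoxb9 and Hoxb13.

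The promoters of Hoxb1, the gene at the end of the window where the atRA libraries differed most, and of Hoxb4, a gene of the anterior group further into the cluster, are shown with their CG pairs, since both marks are usually found at promoters rich in CG. They were taken from RefSeq in the GRCm38.p6 build, forward strand, at chr11:96365508-96365807 and chr11:96318017-96318316, which is a different numbering from the mm9 positions used for the reads. Each runs from 250 bases before the start of the gene to 50 after it, with every CG in capitals.
Hoxb1: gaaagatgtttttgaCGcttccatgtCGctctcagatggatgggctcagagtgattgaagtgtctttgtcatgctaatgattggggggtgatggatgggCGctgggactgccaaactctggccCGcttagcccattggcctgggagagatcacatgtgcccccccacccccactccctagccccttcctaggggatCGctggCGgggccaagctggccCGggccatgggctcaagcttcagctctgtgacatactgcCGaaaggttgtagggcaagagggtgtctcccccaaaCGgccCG
Hoxb4: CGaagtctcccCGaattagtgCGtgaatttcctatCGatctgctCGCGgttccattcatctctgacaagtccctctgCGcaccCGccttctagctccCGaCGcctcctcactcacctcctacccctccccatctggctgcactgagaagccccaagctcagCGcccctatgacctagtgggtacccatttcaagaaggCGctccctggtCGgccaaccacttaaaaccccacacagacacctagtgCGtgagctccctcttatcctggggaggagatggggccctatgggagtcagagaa
The Hoxb1 sequence held 10 CG pairs and the Hoxb4 sequence 14, and the median of 32851 mouse promoters of this length was 7. Fewer CG pairs than in these sequences were found in 56.5% of promoters for Hoxb1 and 63.7% for Hoxb4, so neither stands far from the middle. The letters TGATGGAT, a site bound by Pbx and Hox proteins together in the Hoxb1 autoregulatory element, occurred once in the Hoxb1 sequence, 162 bases before the start, and not in the Hoxb4 sequence. Searched on both strands, they occurred in 0.767% of all promoters. The letters AGGTCA, which nuclear receptors such as the retinoic acid receptors recognise, were searched on both strands too. They occurred once on the reverse strand of the Hoxb4 sequence and not in the Hoxb1 sequence, and in 16.3% of all promoters. These matches describe the letters in these sequences and are not binding data.

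The 2 microRNAs of the cluster are shown with their seeds (bases 2 to 8), the part that pairs with target mRNAs, in capitals. The seeds differ, so the microRNAs fall into 2 seed groups.
mmu-miR-10a-5p: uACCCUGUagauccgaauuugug
mmu-miR-196a-5p: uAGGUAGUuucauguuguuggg

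H3K27me3 covered the cluster in every library, and H3K4me3 did not. The density of H3K27me3 over the window was 4.56 times the autosomal mean in atRA-treated XT67E1, 6.70 times in XT67E1 EBs and 5.83 times in undifferentiated XT67E1. It was 7.55 times in LF2 EBs and 8.49 times in undifferentiated LF2, and 13.4 times in E14 EBs and 9.95 times in undifferentiated E14. Among 246841 autosomal windows of the same length laid every 10 kb, which overlap each other, between 6 (E14 EBs) and 215 (atRA) held as many H3K27me3 reads. H3K4me3 density over the window was 2.01 times the autosomal mean with atRA, 1.55 times in EBs and 1.33 times in undifferentiated XT67E1, and 15591, 33140 and 53143 autosomal windows held as many reads.

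The coverage was uneven along the cluster, with a largely shared pattern in the 3 lines. Bins were called rich in a mark at 5 or more times the autosomal mean of the library. For H3K27me3, 35 of the 95 bins were rich with atRA, 68 in XT67E1 EBs and 56 in undifferentiated XT67E1, where 1.01%, 0.586% and 0.684% of all autosomal bins were. In LF2 the counts were 72 in EBs and 65 undifferentiated, and in E14 they were 76 and 72, where 0.792% and 1.49% of autosomal bins were rich in LF2, and 1.03% and 0.895% in E14. Described in 5 stretches, whose borders were set at 10 kb steps after the values were seen, the mark in undifferentiated cells was high from 0 to 110 kb, low from 130 to 160 kb and high again from 160 to 190 kb, the Hoxb13 end. The stretch from 110 to 130 kb differed between the lines, with 0.873 RPM per kb in undifferentiated XT67E1, 1.52 in LF2 and 2.65 in E14. In undifferentiated XT67E1 the stretch from 70 to 110 kb held 3.46 RPM per kb, the stretch from 130 to 160 kb 0.860 and the Hoxb13 end 2.14. The same stretches held 5.10, 1.02 and 3.08 RPM per kb in undifferentiated LF2, and 6.40, 0.861 and 3.11 in undifferentiated E14. The rank correlation of the 95 bins between undifferentiated libraries was 0.83 for XT67E1 and LF2, 0.81 for XT67E1 and E14 and 0.88 for LF2 and E14. The fullest H3K27me3 bins lay from 72 to 104 kb in most libraries. The fullest was at 74 kb with atRA (88 reads, 11.0 RPM), at 74 and 78 kb in XT67E1 EBs (78 reads each, 9.81 RPM) and at 86 kb in undifferentiated XT67E1 (78 reads, 9.72 RPM). In LF2 it was at 102 kb in EBs (61 reads, 14.2 RPM) and at 72 kb undifferentiated (64 reads, 14.7 RPM), and in E14 at 102 kb in EBs (104 reads, 23.5 RPM) and at 40 kb undifferentiated (85 reads, 19.3 RPM). The counting intervals of the leading bins of a library overlapped, so their order is not fixed at this depth. The correlations are descriptions over neighbouring bins, which share their domain and libraries.

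**Figure D1:**
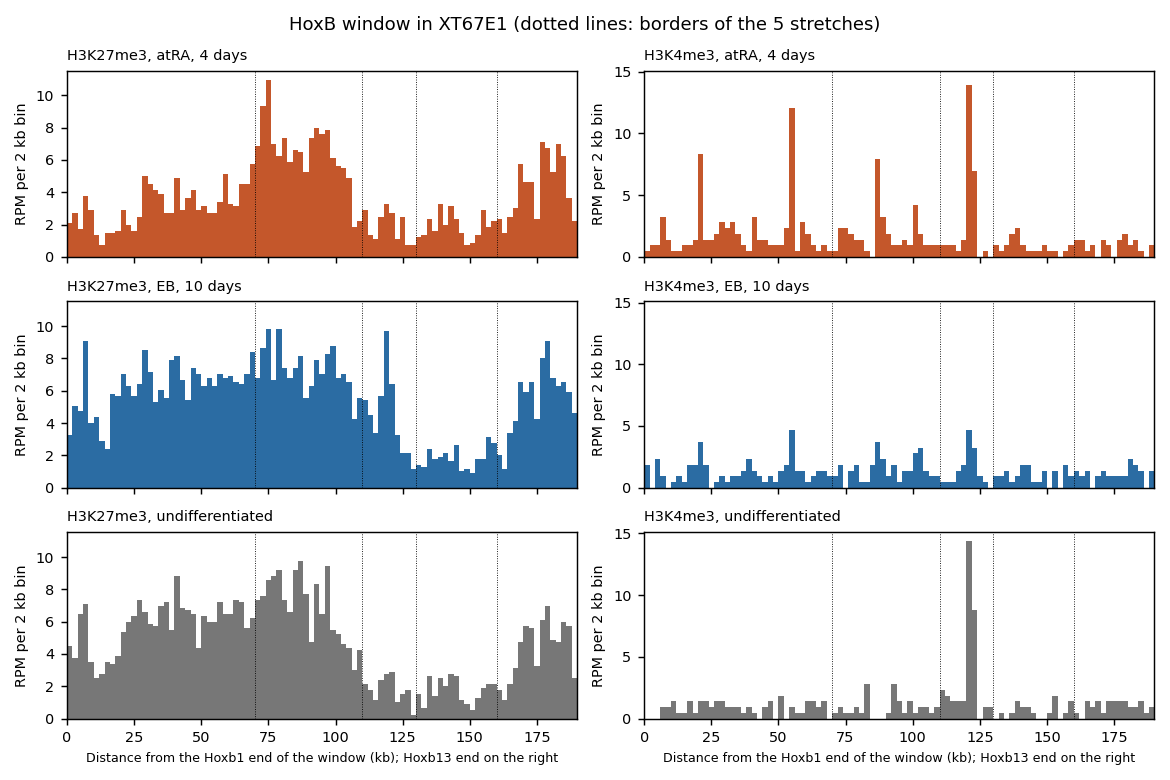
Reads per 1000000 autosomal reads (RPM) in each 2 kb bin of the HoxB window in XT67E1, by distance from the Hoxb1 end in kb; H3K27me3 on the left and H3K4me3 on the right, with atRA, EBs and undifferentiated cells from top to bottom, 1 library each. With atRA the H3K27me3 bars are low over the first 70 kb, and H3K4me3 stands out at 20, 54 and 86 kb. In EBs the H3K4me3 peak at 120 kb is lower than in undifferentiated cells, and H3K27me3 is higher there.

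With atRA, H3K27me3 was lower over the Hoxb1 side of the cluster and close to the undifferentiated level over the rest. The first 70 kb from the Hoxb1 end held 869 reads (108 RPM) with atRA, against 1624 reads (202 RPM) in undifferentiated cells. This is 0.536 times the undifferentiated density (interval 0.493 to 0.582), a log2 ratio of -0.90. All 7 blocks of 10 kb in this stretch lay below 0 with intervals that excluded it, from -1.23 in the block at 10 kb to -0.64 in the block at 60 kb. The border at 70 kb was set after these values were seen. That the 7 blocks before it share a direction thus follows in part from the choice. The next block, from 70 to 80 kb, held 324 reads with atRA and 334 in undifferentiated cells, a log2 ratio of -0.04 (interval -0.27 to 0.18). Of the 11 blocks from 80 kb to the Hoxb13 end, 1 had an interval that excluded 0, the block at 80 kb, with -0.36 (-0.61 to -0.12).

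The single bins, which hold the same reads as the blocks and are no separate evidence, gave the same picture. A bin with 20 or more reads over the pair of libraries was called when its ratio was 2-fold or larger and the interval excluded 1; shares of autosomal bins called are over bins with the same minimum. With atRA, 15 of 89 such HoxB bins were lower and 0 were higher, where 2.12% of autosomal bins were lower and 3.66% higher. All 15 lay within 64 kb of the Hoxb1 end. The lowest was the bin at 24 kb (96209001 to 96211000), with 13 reads with atRA against 51 in undifferentiated cells (log2 -1.89, interval -2.97 to -1.07). The bin at 4 kb (96229001 to 96231000) followed with 14 reads against 52 (-1.82, interval -2.86 to -1.02). The bin with the highest ratio was at 124 kb, with 20 reads against 12, and it did not reach the 2-fold size (0.69, interval -0.36 to 1.90). A pseudocount of 5 reads in place of 1 left 8 lower bins.

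H3K27me3 was also lower with atRA beyond the Hoxb1 end of the window. Only the total of 190 kb was taken there, so where in it the difference lay is not known. The next 190 kb beyond Hoxb1 held 1320 H3K27me3 reads with atRA and 1654 in undifferentiated cells, a log2 ratio of -0.32 (interval -0.43 to -0.22), at 2.14 and 2.68 times the autosomal density. The 190 kb beyond Hoxb13 held 944 and 969 reads (-0.04, interval -0.17 to 0.09). For the whole HoxB window the atRA log2 ratio was -0.36 (-0.43 to -0.29), with 350.1 RPM with atRA and 448 RPM in undifferentiated cells. Of the autosomal windows of the same length that reached a minimum of 100 reads, 4.58% had a lower ratio. The whole-window value was thus low among them but not extreme.

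H3K4me3 was higher with atRA over the same side of the cluster and in a few sharp places. The first 70 kb held 143 reads with atRA and 61 in undifferentiated cells, 2.33 times the undifferentiated density (interval 1.73 to 3.22). The stretch from 70 to 110 kb, where H3K27me3 differed little (log2 -0.10, interval -0.22 to 0.02), held 78 and 36 reads, a ratio of 2.14 (1.44 to 3.32). From 110 kb to the Hoxb13 end no stretch had an interval that excluded 0. The 190 kb beyond Hoxb1 held 161 H3K4me3 reads with atRA and 157 in undifferentiated cells (0.04, interval -0.29 to 0.36), and the 190 kb beyond Hoxb13 held 531 and 515.

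A few bins stood out in this difference. The bin at 54 kb (96179001 to 96181000) held 26 H3K4me3 reads with atRA, 10 in EBs and 2 in undifferentiated cells, and atRA against undifferentiated gave a log2 ratio of 3.17 (interval 1.70 to 6.82). The bin at 20 kb (96213001 to 96215000) held 18, 8 and 3 reads, with 2.25 for atRA (0.81 to 4.99). The bin at 86 kb (96147001 to 96149000) held 17, 8 and 0 reads, so that the atRA level was 5.67-fold higher against a floor of 3 reads. The counting interval of its log2 ratio started at 2.05. With fewer than 20 reads it was not among the bins called. These bins were named for their high H3K4me3 with atRA, so that library being the highest of the 3 in them follows from the choice. H3K27me3 in the same bins was lower with atRA than undifferentiated at 54 kb, with 22 reads with atRA, 50 in EBs and 48 in undifferentiated cells, and at 20 kb with 23, 56 and 43. At 86 kb there were 52, 65 and 78 H3K27me3 reads (atRA log2 -0.57, interval -1.12 to -0.06). The H3K27me3 ratios at 54 and 20 kb, 0.459 and 0.535, were near that of the whole first 70 kb (0.536), and the bin at 20 kb was not called.

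At this depth few H3K4me3 bins could be compared one by one. With atRA 4 HoxB bins reached 20 reads, of which 2 were higher, those at 54 and 20 kb, and 0 were lower, where 4.87% of autosomal bins were higher and 12.2% lower. The 2 higher bins reached the minimum only through their atRA reads (26 against 2 and 18 against 3). Their calls were thus nearly fixed by the minimum, and the share carries no weight beside the autosomal one. The other bins of the 4 were the neighbours at 120 and 122 kb, the only H3K4me3-rich bins of the window in undifferentiated cells (2.11% of the 95, against 1.41% of autosomal bins). The bin at 120 kb (96113001 to 96115000) held 30 reads with atRA, 10 in EBs and 31 in undifferentiated cells, and the bin at 122 kb (96111001 to 96113000) held 15, 7 and 19. With atRA both were close to the undifferentiated level (log2 -0.04, interval -0.82 to 0.73, and -0.32, interval -1.42 to 0.72).

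EBs had more H3K4me3 than undifferentiated cells over the Hoxb1 side too. The first 70 kb held 94 reads in EBs against 61 (ratio 1.53, interval 1.10 to 2.16) and the stretch from 70 to 110 kb 65 against 36 (1.78, 1.18 to 2.79). The log2 ratios of these stretches were 0.48 and 0.70 with background scaling, and 0.95 and 1.17 with median-of-ratios scaling. Of autosomal windows of the same length with at least 100 reads, 72.5% had a lower ratio than the whole HoxB window (log2 0.22), which thus did not stand out. At the peak at 120 to 124 kb the direction was the opposite: both bins were called lower in EBs, with log2 ratios of -1.54 (interval -2.83 to -0.57) at 120 kb and -1.32 (-2.93 to -0.13) at 122 kb. They were the 2 bins of the window with 20 or more reads in EBs and undifferentiated cells. Both reached this minimum mainly through their undifferentiated reads (31 and 19, against 10 and 7 in EBs), so the share called lower carries little weight. Of the 15197 autosomal bins with 20 or more reads, 13.1% were lower and 2.94% higher in EBs, and their median lay at -0.33 (log2). The bin at 122 kb was no longer called with median-of-ratios scaling (-0.99) or with a pseudocount of 5 reads, while that at 120 kb was called under both. Set to that median, the ratio of the whole stretch from 110 to 130 kb was -0.90 in place of -1.24. The comparisons of atRA and of EBs share the undifferentiated library and are therefore given side by side.

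**Figure D2:**
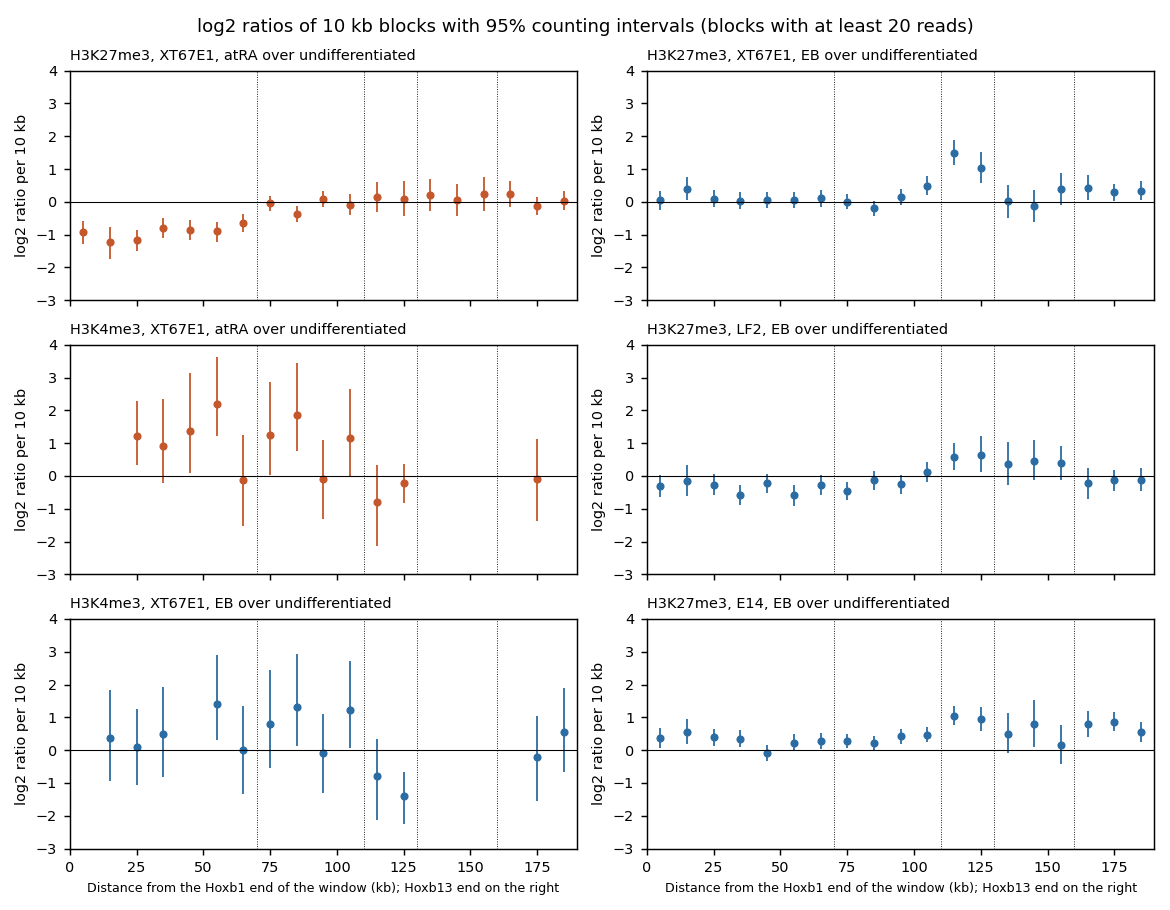
log2 ratio over undifferentiated cells in each 10 kb block of the HoxB window with at least 20 reads (points) and its 95% counting interval (lines), by distance from the Hoxb1 end in kb; the left column holds the atRA comparisons and H3K4me3 in EBs, the right column H3K27me3 in EBs of the 3 lines. In the atRA panel for H3K27me3 the blocks up to 70 kb lie between -1.23 and -0.64, and in the EB panels the blocks at 110 and 120 kb lie above 0 in the 3 lines.

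In EBs the clearest H3K27me3 difference was at that same place. In XT67E1, 7 of 89 bins were higher and 0 lower, where 2.19% of autosomal bins were higher and 4.15% lower, and the 7 were adjacent, from 110 to 124 kb (96111001 to 96125000). The bin at 118 kb (96115001 to 96117000) held 77 reads in EBs and 22 in undifferentiated cells (log2 1.77, interval 1.12 to 2.57), and the bin at 122 kb held 26 and 8 (1.60, interval 0.53 to 3.07). With atRA these bins held 26 and 9 H3K27me3 reads. The bin at 120 kb, the site of the H3K4me3 peak, held 51 H3K27me3 reads in EBs, 22 with atRA and 23 in undifferentiated cells. In EBs it was rich in both marks, as was the bin at 54 kb; with atRA the bins at 86 and 100 kb were. Of the 95 bins, 2 were thus rich in both with atRA, 2 in EBs and 0 in undifferentiated cells, where 0.0788%, 0.0726% and 0.0468% of autosomal bins were. H3K27me3 was rich in 35 of the 95 bins with atRA and 68 in EBs, and H3K4me3 in 6 and 2. The overlaps with atRA and in EBs are near what these separate counts alone would give. Some bins also lay at the cut of 8.7 H3K4me3 reads, with 9 at 100 kb with atRA and 10 in each of the EB bins. H3K4me3 and H3K27me3 came from separate libraries of many cells, so a bin rich in both does not show that both marks sat on the same chromosome.

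LF2 and E14 EBs had more H3K27me3 over the stretch from 110 to 130 kb as well. The borders of this stretch were set after the values were seen, and its intervals do not allow for that choice. The stretch held 348 reads in EBs and 140 undifferentiated in XT67E1 (log2 1.32, interval 1.04 to 1.62), 201 and 133 in LF2 (0.61, 0.29 to 0.94), and 474 and 234 in E14 (1.01, 0.79 to 1.25). In LF2, 4 of 84 bins were higher and 1 lower, where 1.96% of autosomal bins were higher and 12.6% lower. These calls depended on the settings: background scaling gave 2 higher and 4 lower, a pseudocount of 5 reads 2 and 0, and 5 kb bins 0 and 0. The 4 higher bins lay between 106 and 124 kb, and the highest, at 122 kb, held 21 reads in EBs and 1 undifferentiated (3.48, interval 1.77 to 9.78). In E14, 8 of 83 bins were higher and 0 lower, where 9.02% of autosomal bins were higher and 5.84% lower, so the share of higher bins in E14 was near the background. Of these 8, 5 lay between 112 and 128 kb and the other 3 at 160, 178 and 182 kb.

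**Figure D3:**
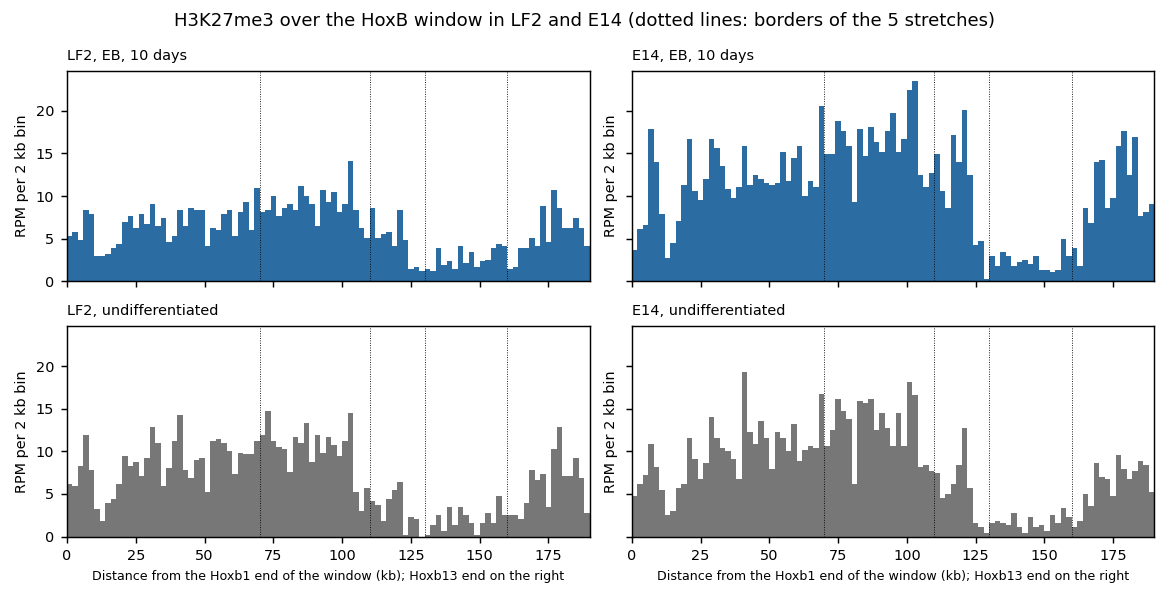
H3K27me3 in RPM per 2 kb bin of the HoxB window in LF2 (left) and E14 (right), EBs above undifferentiated cells, by distance from the Hoxb1 end in kb, 1 library each. The 4 libraries share high levels up to about 110 kb, low levels from 130 to 160 kb and a second rise at the Hoxb13 end, and E14 EBs have the highest bars, up to 23.5 RPM.

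Over the whole window, with scaling to autosomal reads, the 3 lines differed in direction. The log2 ratio of EBs over undifferentiated cells was 0.20 (interval 0.13 to 0.26) in XT67E1, -0.17 (-0.25 to -0.09) in LF2 and 0.43 (0.36 to 0.49) in E14, with 515, 579.9 and 1028 RPM in EBs and 448, 653 and 765 RPM undifferentiated. The mean over lines was 0.15 ± 0.30 (SD, n = 3 lines; two-sided exact sign-flip p = 0.5, where 0.25 is the smallest p that 3 lines can give). The intervals of the single lines cover counting error only. Of the autosomal windows of the same length that reached a minimum of 100 reads, 84.0% had a lower ratio in XT67E1. In LF2 19.4% did, and in E14 97.8%. The XT67E1 and LF2 values thus did not stand out among windows of this length, and the E14 value lay near the upper end. H3K27me3 around the window differed between the lines as well. The 190 kb beyond Hoxb1 had log2 ratios of -0.02 (interval -0.12 to 0.08) in XT67E1, -0.29 (-0.42 to -0.16) in LF2 and 0.54 (0.40 to 0.68) in E14, and the 190 kb beyond Hoxb13 had 0.37 (0.25 to 0.50), 0.19 (0.04 to 0.35) and 0.60 (0.46 to 0.74) in the same order. In E14 the higher level in EBs was thus as large in the surroundings as in the cluster.

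With scaling to autosomal reads, the lines differed in direction on the Hoxb1 side of the cluster. LF2 was lower in EBs over the first 70 kb (-0.35, interval -0.47 to -0.23), XT67E1 was close to the undifferentiated level there (0.10, -0.0026 to 0.19) and E14 was higher (0.26, 0.16 to 0.36). The 95 kb on the Hoxb13 side were above 0 in the 3 lines, where XT67E1 had 0.46, LF2 0.12 and E14 0.69 (mean 0.42 ± 0.29, SD, n = 3; exact sign-flip p = 0.25). The LF2 value on the Hoxb13 side rests on 1025 reads in EBs (238 RPM, interval 224 to 253) and 958 undifferentiated (220 RPM, 206 to 234). These intervals overlap, and background scaling moved all LF2 bins by -0.20, a larger size than this value. When all bins were shifted so that the median autosomal bin was at 0, LF2 over the whole window turned to 0.16, and the 3 lines were then all above 0. Over the first 70 kb this shift gave 0.20 in XT67E1, -0.02 in LF2 and 0.10 in E14. Background scaling gave -0.05, -0.55 and 0.37 there in the same order. The difference in direction between the lines thus depends on the scaling.

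With the 3 lines taken as replicates, no single HoxB bin passed. limma, with the line as a block and Benjamini-Hochberg adjustment over 413228 bins of 2 kb, called 0 of 94 HoxB bins higher and 0 lower, where 0.0148% and 0.000484% of all bins were. At an unadjusted p under 0.05, 9 HoxB bins were higher and 0 lower, against 2.96% and 3.98% of all bins. The 9 became 4 without E14, 5 with no replicate block, 5 with background scaling and 14 with voom. The bin nearest to the threshold was that at 122 kb, with a mean of 6.86 RPM in EBs and 2.30 RPM undifferentiated (log2 2.10 ± 0.41, SE; limma adjusted p = 0.083). It was higher in EBs in 3 of 3 lines, but its choice by the smallest p favours such a bin. Of the 94 HoxB bins, 21 were above 0 in all 3 lines and 6 below. The adjusted p of the bin at 122 kb ran from 0.0049 with a minimum of 60 reads to 0.89 with no minimum. Its LF2 value rests on 1 undifferentiated read, and without LF2 its log2 ratio was 1.34 (limma adjusted p = 0.495). The next were the bins at 114 kb (1.25, limma adjusted p = 0.39) and 110 kb (1.10, 0.43).

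The stretch from 130 to 160 kb, on the Hoxb13 side of the window, was low in both marks. It held from 0.860 to 1.36 RPM per kb of H3K27me3 over the 7 libraries, and 26 H3K4me3 reads with atRA, 32 in EBs and 19 in undifferentiated cells. H3K27me3 was a little higher in EBs of LF2 (0.41, interval 0.08 to 0.75) and E14 (0.46, 0.11 to 0.83), and in XT67E1 the interval included 0 (0.09, -0.19 to 0.37). The last 30 kb, up to the Hoxb13 end, held 155 RPM in E14 EBs against 93.2 undifferentiated (0.74, 0.56 to 0.92) and 81.2 in XT67E1 EBs against 64.3 undifferentiated (0.34, 0.17 to 0.51). In LF2 these were 83.3 and 92.3 RPM (-0.15, -0.36 to 0.06). With atRA the Hoxb13 end held 520 H3K27me3 reads, against 516 undifferentiated (0.01, -0.17 to 0.19), and 29 H3K4me3 reads, against 32.

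**Figure D4:**
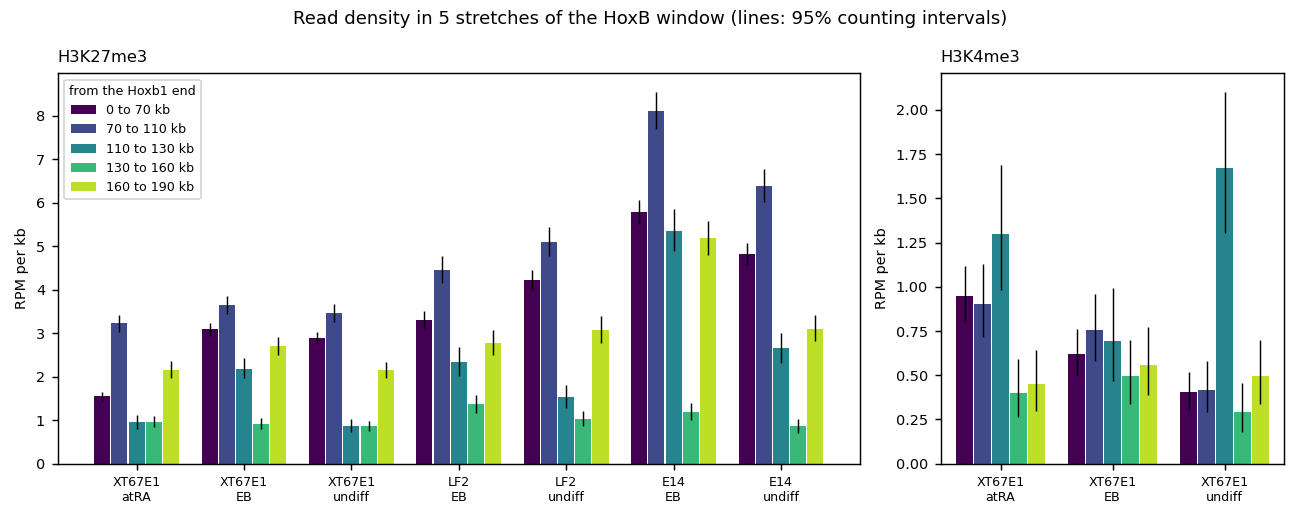
Read density (RPM per kb) in 5 stretches of the HoxB window for H3K27me3 in 7 libraries (left) and H3K4me3 in 3 libraries (right), with 95% counting intervals as lines. Over the first 70 kb, H3K27me3 is lower with atRA than in undifferentiated cells (1.55 against 2.89 RPM per kb). From 110 to 130 kb, H3K27me3 is higher in EBs than in undifferentiated cells of the same line in the 3 lines. H3K4me3 is lower there in EBs (0.695 against 1.67 RPM per kb in XT67E1).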

How the data were processed

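Per the submitters' processing notes the deposited read positions are in mm9. The authors deposited 1 list of 200 bp intervals per library, with no strand and no score; the aligner, the filters and any read extension are not stated in the labels used here, and no library listed an interval more than 1 time. The libraries of a set hold equal read numbers. Interval midpoints were counted in 1 kb units and summed to 2, 5 and 10 kb bins. Ratios used counts plus 1 read, scaled to autosomal reads, with an exact conditional binomial interval; with 1 library per group, no p-value was computed between 2 libraries. Alternatives were other bin sizes, read minimums and pseudocounts, background scaling (to reads in autosomal bins up to the median coverage), median-of-ratios scaling, limma voom, no block and leaving out each line. H3K27me3 in EBs was tested over the 3 lines with limma 3.58.1 (R 4.3.3; trend, at least 30 reads over 6 libraries, autosomes and X, adjusted p under 0.05, two-sided). The line was a block, since same-line libraries share their cells; the correlation of their deviations from the state means was 0.14 for XT67E1, 0.041 for LF2 and 0.15 for E14. Each p-value compares 3 lines, with a spread that is moderated by that of all bins. Size calls and limma were also run on simulated counts. Their spread was set by the simulation, so these runs do not show how the calls behave under the spread between real libraries. Named bins are the 5 highest and 5 lowest ratios per comparison and the 5 fullest bins per library, of which the text gives those its comparisons turn on. The window and lists were chosen with earlier results of these data known. Promoter and microRNA sequences are from RefSeq (GRCm38.p6). Python 3 with numpy and scipy was used otherwise.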

Additional observations from a re-analysis of the deposited data

Results flagged for a closer look

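The whole HoxB window moved in different directions in the 3 lines. In H3K27me3, EBs against undifferentiated cells gave a log2 ratio of -0.17 in LF2, 0.20 in XT67E1 and 0.43 in E14. With 1 library per line and state, this difference between lines was not tested. Of autosomal windows of the same length, 19.4%, 84.0% and 97.8% had a lower ratio in the same order. The LF2 and XT67E1 values thus did not stand out among such windows. The LF2 value was -0.37 with background scaling and 0.16 with median-of-ratios scaling, so its direction depends on the scaling.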

How the results depend on the processing

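Whole-window ratios moved with the side of the cluster and with the scaling, and the cause was not tested. On the Hoxb1 side alone, the whole-window log2 ratios were 1.23 (H3K4me3, atRA), 0.67 (H3K4me3, EBs), -0.59 (H3K27me3, atRA), 0.053 (XT67E1 EBs), -0.34 (LF2 EBs) and 0.27 (E14 EBs). On the Hoxb13 side alone they were -0.0086, -0.14, 0.022, 0.46, 0.12 and 0.69 in the same order, so the sign changed there for H3K4me3 with atRA and in EBs and for H3K27me3 with atRA and in LF2 EBs; the whole-window interval of H3K4me3 in EBs included 0. Background scaling gave H3K27me3 ratios of -0.22 (atRA), 0.053 (XT67E1 EBs), -0.37 (LF2 EBs) and 0.53 (E14 EBs), and median-of-ratios scaling gave 0.56 for H3K4me3 in EBs and -0.43, 0.30, 0.16 and 0.26 for these H3K27me3 ratios. Background scaling moved all bins by -0.13 (H3K4me3, EBs), 0.14 (H3K27me3, atRA), -0.15 (XT67E1 EBs), -0.20 (LF2 EBs) and 0.11 (E14 EBs). Median-of-ratios scaling moved them by 0.33 (H3K4me3, EBs), 0.10 (XT67E1 EBs), 0.33 (LF2 EBs) and -0.17 (E14 EBs), and it turned the LF2 stretch from 70 to 110 kb to 0.13. No other stretch whose interval excluded 0 turned under these 2 scalings: the first 70 kb in H3K27me3 with atRA ran from -0.98 to -0.76, and the stretch from 110 to 130 kb in EBs from 1.17 to 1.42 in XT67E1, 0.41 to 0.94 in LF2 and 0.85 to 1.12 in E14. The mean over lines stayed above 0, from 0.014 without E14 to 0.31 without LF2.

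Shares of called bins changed where counts were low. With no read minimum, 5.26% of all 95 bins were higher in H3K4me3 with atRA, and 2.11% were higher and 2.11% lower in EBs. With bins shifted by 1 kb, 50% (1 of 2 bins) were higher with atRA and 100% (1 of 1) lower in EBs; a pseudocount of 5 reads and median-of-ratios scaling each gave 50% lower in EBs. For H3K27me3, a pseudocount of 5 reads gave 8.99% lower with atRA, and 2.38% higher and 0% lower in LF2. LF2 had 2.38% higher and 4.76% lower bins with background scaling, 8.33% and 0% with median-of-ratios scaling, 0% and 0% in 5 kb bins, 1.19% and 2.38% in shifted bins and 0.794% higher in 1 kb bins. E14 had 4.82% higher with median-of-ratios scaling. limma called 1 HoxB bin higher with a minimum of 60 reads and 1 with background scaling; with no replicate block, voom, no minimum, a pseudocount of 5 reads, 10 kb bins or without any 1 line it called 0 (0 without each line).

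Shares of rich bins followed the threshold. At 3 times the autosomal mean, H3K27me3 was rich in 66.3% of bins with atRA, 81.1% in XT67E1 EBs, 76.8% in undifferentiated XT67E1, 86.3% in LF2 EBs, 84.2% in undifferentiated LF2 and 89.5% in E14 EBs. At 10 times the mean these were 2.11%, 12.6%, 8.42%, 32.6%, 41.1% and 69.5%, with 50.5% in undifferentiated E14. H3K4me3 in EBs was rich in 7.37%, 0% and, in 5 kb bins at 5 times the mean, 0%. Both marks were rich in 11.6% with atRA and 7.37% in EBs at 3 times the mean, 0% and 0% at 10 times, and 0% in 5 kb bins in EBs. At 20 reads or fewer per bin, H3K4me3 differences of single bins were mostly not detectable at this depth.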
